A study of Mus musculus with 16 samples.

Results

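The genes described here encode 7 secreted or surface proteins that mouse neutrophils store in granules or release late in maturation: Mmp8, Mmp9, Mmp25, Adam8, Cfp, Fcnb and Lyz2. They were matched by Ensembl identifier among the 49315 genes of the deposited count files, all 7 were found, and all 7 passed the filter on low counts in every comparison below. Neutrophils were sorted from the blood and the lung of wild type (WT) mice and of mice with a germline knockout of CD11d, the integrin αD chain encoded by Itgad (αD KO). Mice were males of 8 to 12 weeks, either untreated (0h) or taken 12 hours after cecal ligation and puncture (CLP), a surgical model of sepsis in which gut content leaks into the abdomen. The cells were gated as Ly6G+/CD11b+/CD45.2+, and the 8 groups (genotype by tissue by time) had 3 count files each from 2 labelled samples. Libraries 1a and 1b below are the pair of files from sample 1, and library 2 is the file from sample 2. The paper describes its sequencing as done in triplicates, without saying whether these were animals. No source states that the 3 files of a group came from separate animals, so the p-values and SDs measure only the spread between these files. Where libraries 1a and 1b are parts of a single sample, the groups hold 2 samples each, and a fit with the files of sample 1 summed (2 against 2) is given below.

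Neutrophils fill their granules in order as they mature, first azurophil, then specific, then gelatinase (tertiary) granules, which are released most readily. MMP8 (neutrophil collagenase) and MMP9 (gelatinase B) cut collagens and other matrix proteins, MMP25 (leukolysin) is a membrane-anchored metalloprotease, and ADAM8 is a surface metalloprotease that sheds adhesion molecules. CFP (properdin) stabilises the alternative pathway convertase of complement, and FCNB (ficolin B) is a lectin that can start the lectin pathway. LYZ2 is the lysozyme of myeloid cells, cleaves bacterial cell walls, and is made by monocytes and macrophages as well as by neutrophils.

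On the GRCm38 build, as the files give them, the genes lie at chr9:7558456-7568485 (Mmp8, plus strand), chr2:164940780-164955850 (Mmp9, plus), chr17:23629458-23645269 (Mmp25, minus), chr7:139978932-139992562 (Adam8, minus), chrX:20925454-20931555 (Cfp, minus), chr2:28076378-28084885 (Fcnb, minus) and chr10:117277334-117282274 (Lyz2, minus). All 7 are protein-coding, and the values below are counts over all annotated exons. The promoters of the pair of metalloprotease genes that rose together and of Lyz2, which took the other direction, are shown with that of Lyz1, the neighbouring lysozyme copy. Each is the 250 bases before the RefSeq start of the gene (GRCm38.p6), 5′ to 3′ on the strand of the gene. Capitals mark matches, on either strand, to GAGGAA (core of sites of PU.1, a myeloid transcription factor), TTNNGNAA (half-sites of C/EBP factors) or TGANTCA (AP-1).
Mmp8, chr9:7558179-7558428, plus strand: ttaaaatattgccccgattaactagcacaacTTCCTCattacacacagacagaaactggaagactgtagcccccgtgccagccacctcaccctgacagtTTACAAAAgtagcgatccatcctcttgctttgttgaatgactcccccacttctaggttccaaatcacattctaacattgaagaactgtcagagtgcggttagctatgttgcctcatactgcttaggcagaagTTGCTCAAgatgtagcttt
Mmp25, chr17:23645270-23645519, minus strand: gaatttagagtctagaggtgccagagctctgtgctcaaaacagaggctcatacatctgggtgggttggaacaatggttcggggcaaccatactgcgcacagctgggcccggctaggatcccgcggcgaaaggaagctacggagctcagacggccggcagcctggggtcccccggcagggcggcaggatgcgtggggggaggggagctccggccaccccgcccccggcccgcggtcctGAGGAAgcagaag
Lyz2, chr10:117282273-117282522, minus strand: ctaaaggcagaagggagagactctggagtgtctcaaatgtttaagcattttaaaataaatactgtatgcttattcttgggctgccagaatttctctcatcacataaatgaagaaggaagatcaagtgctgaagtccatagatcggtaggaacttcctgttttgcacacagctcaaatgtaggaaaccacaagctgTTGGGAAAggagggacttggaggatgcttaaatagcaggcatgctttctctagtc
Lyz1, chr10:117292869-117293118, minus strand: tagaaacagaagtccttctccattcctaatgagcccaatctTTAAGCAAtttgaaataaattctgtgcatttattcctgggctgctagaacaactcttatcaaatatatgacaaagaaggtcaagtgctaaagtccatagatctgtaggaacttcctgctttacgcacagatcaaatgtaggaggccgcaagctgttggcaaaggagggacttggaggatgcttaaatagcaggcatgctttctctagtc
The Mmp8 promoter had a PU.1 match at positions -219 to -214 and C/EBP matches at -151 to -144 and -19 to -12, counted back from the start. Mmp25 had a PU.1 match at -13 to -8, Lyz2 a C/EBP match at -55 to -48 and Lyz1 a C/EBP match at -209 to -202. No match overlapped another. Promoters were matched for 6 of the 7 genes, all but Mmp9. Of these 6, 2 held the PU.1 letters and 4 the C/EBP letters, against 23.3% and 36.8% of 32851 promoters of the same length. None of the 6 held the AP-1 letters, which 6.75% of all promoters held. The last 50 bases before the start were identical in Lyz2 and Lyz1.

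The 24 libraries held 5753476 to 29984954 counts (median 18741144), and the 7 genes took 0.629% to 3.25% of them. Itgad was at 0.0583 to 3.67 CPM (counts scaled by library size, with TMM factors over all 24 libraries) in the 12 libraries labelled WT and at 12.5 to 102 CPM in the 12 labelled αD KO. The targeted gene was thus higher under the αD KO label, and counts per gene cannot show whether those transcripts carry the deletion. Whether the genotype labels are right was not tested. Exchanged labels would reverse the sign of each genotype comparison below. Groups are named by their labels throughout. Each library labelled αD KO lung was placed between the WT lung means at 0h (0) and 12 hours (1) over 1336 genes called in WT lung, members left out. Those labelled 0h lay at 0.15, 0.097 and 1.03 (libraries 1a, 1b and 2) and those labelled 12 hours at 0.099, 0.83 and 0.19, so that library 2 of 0h and libraries 1a and 2 of 12 hours stood with the other time. Since the WT change placed them, the libraries that are left resemble it by construction, and values without those that stood apart are given below as a description. Libraries 1b had 29162 to 38844 genes with counts and the other 16 libraries 17132 to 32666. Neutrophil markers (S100a8, S100a9, Ly6g, Csf3r, Cxcr2, Retnlg) were all detected in every group. Their sum was higher at 12 hours, without overlap, in WT blood (26092 to 43879 CPM at 0h and 96269 to 184719 CPM at 12 hours), in WT lung (32938 to 46279 and 71643 to 129258 CPM) and in αD KO blood (31204 to 52163 and 109281 to 132797 CPM). For αD KO lung, the ranges overlapped (38535 to 82455 and 48631 to 80335 CPM). Alveolar and club cell markers summed to 19.9 to 787 CPM in lung and 0.99 to 256 in blood, endothelial markers to 4.3 to 102, T and NK cell markers to 3.37 to 221, erythroid markers to 27.4 to 9060 and platelet markers to 3.1 to 615 CPM over all libraries.

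Per kb of exon, Lyz2 had the highest median level over the 24 libraries (2446 CPM per kb), followed by Mmp8 (1262), Mmp9 (1252), Cfp (320), Adam8 (179), Mmp25 (44.9) and Fcnb (1.98). Lyz2 was above Mmp8 in only 13 of 24 libraries and Mmp8 above Mmp9 in 13 of 24, so the order of the top 3 changed between libraries. By group means per kb, Lyz2 was the highest of the 7 in all 4 groups at 0h and in αD KO lung at 12 hours, and Mmp8 in the other 3 groups at 12 hours. Mmp9 was above Cfp in 24 of 24, Cfp above Adam8 in 21, Adam8 above Mmp25 in 20 and Mmp25 above Fcnb in 24. Mmp9 was the steadiest, with 4.1-fold between its highest and lowest library in CPM, and Fcnb and Lyz2 the least steady, with 53.1-fold and 50.7-fold.

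**Figure D1:**
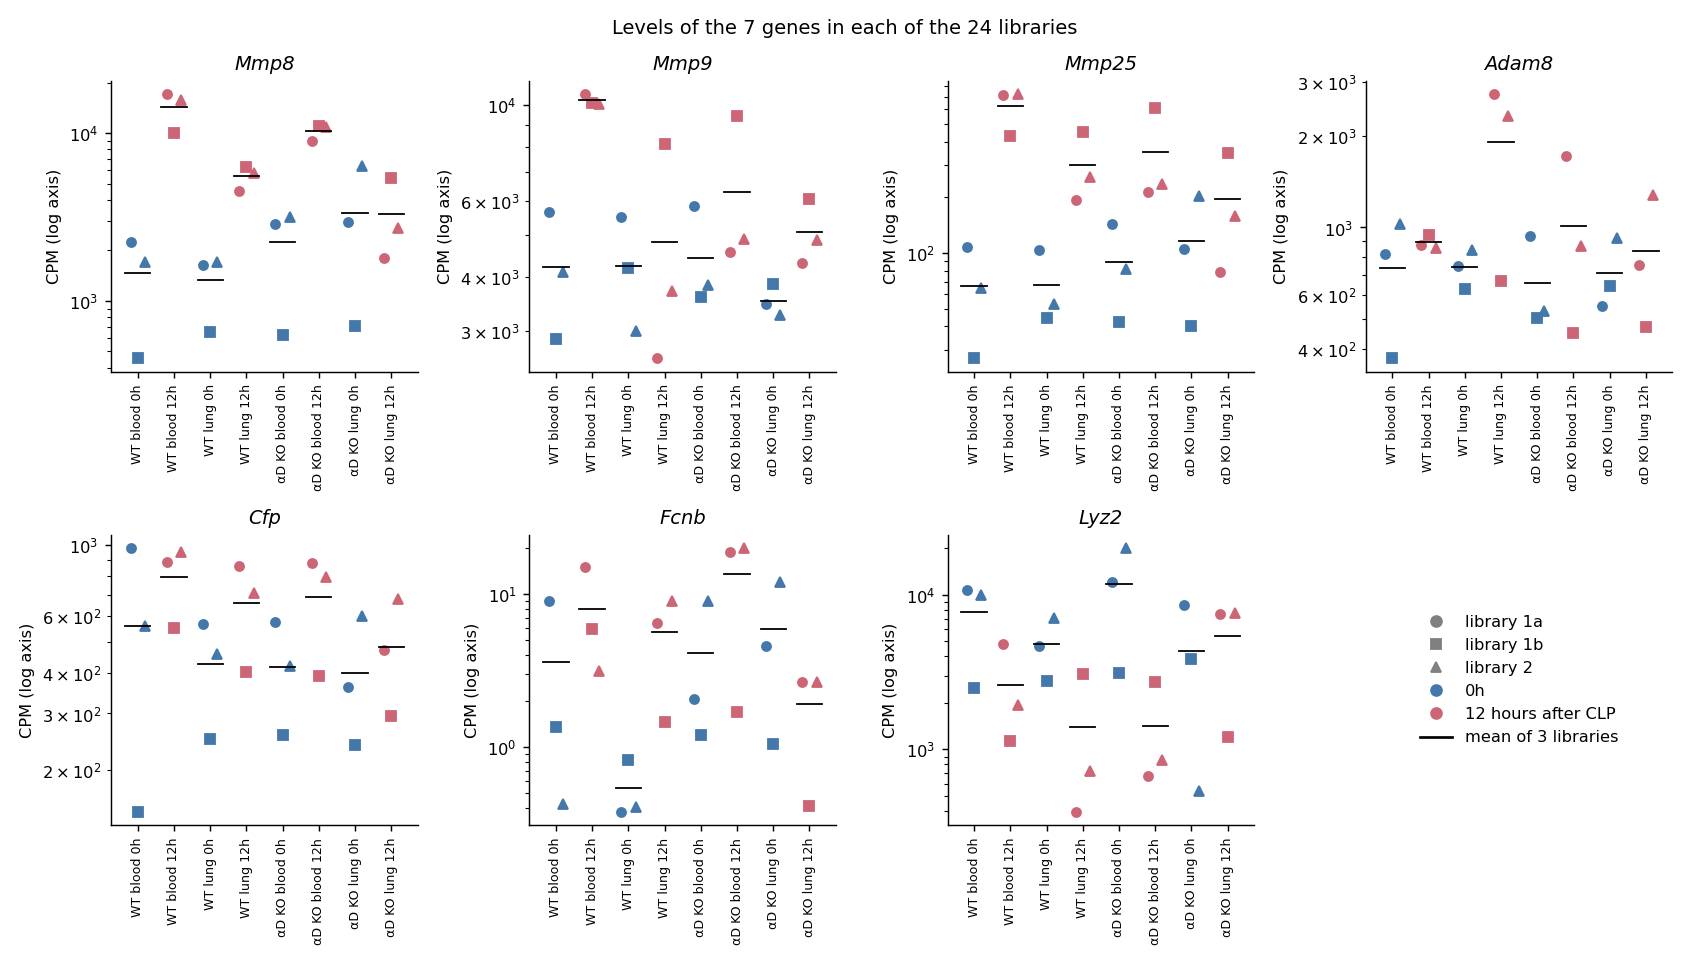
Level of each gene (vertical log axes, CPM) in the 3 libraries of each of the 8 groups, with the group mean as a line; shapes give the library and colours the time. Mmp8 in WT blood went from 455 to 2248 CPM at 0h to 10005 to 17043 CPM at 12 hours, and the libraries 1b (squares) were the lowest for Mmp8, Mmp25 and Cfp in all 4 groups at 0h.

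The first question was which of these genes changed at 12 hours after CLP. With edgeR (Benjamini-Hochberg adjusted p under 0.05 and absolute log2 fold change over 1), 2 of 7 genes were called in WT blood, 3 of 7 in WT lung, 2 of 7 in αD KO blood and 0 of 7 in αD KO lung. The same rule called 13.5%, 9.02%, 8.75% and 0.0% of all genes tested in these comparisons. Mmp8 was called higher in each of the first 3. Mmp25 rose in both WT tissues, Fcnb rose in WT lung, and Lyz2 fell in αD KO blood. Mmp9, Adam8 and Cfp were not called by this fit in any of the 4, and no gene had an unadjusted p under 0.05 in αD KO lung. DESeq2 called 4, 4, 3 and 0 of the 7 genes, where it called 19.0%, 19.0% and 15.9% of all genes in the first 3. It added Mmp9 and Lyz2 in WT blood, Adam8 in WT lung and Mmp25 in αD KO blood. Libraries of the 2 times did not overlap for 3, 3, 3 and 1 of the 7 genes, against 34.7%, 28.5%, 32.2% and 2.86% of all genes tested. With the files of sample 1 summed, edgeR called 4 genes in WT blood (Mmp8, Mmp9 and Mmp25 higher, Lyz2 lower; 15.9% of all genes), 4 in WT lung (Mmp8, Mmp25 and Fcnb higher, Lyz2 lower; 12.3%), 2 in αD KO blood (Mmp8 higher, Lyz2 lower; 3.84%) and 0 in αD KO lung. A permutation test of a single gene over 3 against 3 libraries cannot give an exact p below 0.1.

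**Figure D2:**
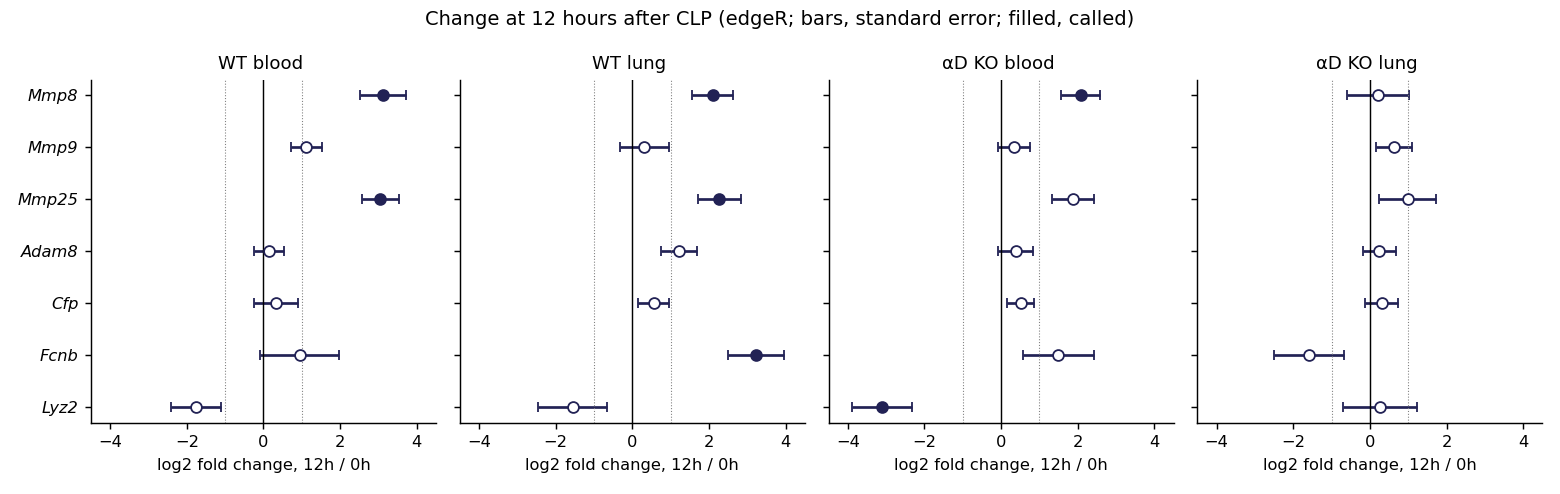
Fitted log2 fold change at 12 hours against 0h (horizontal axis, edgeR) of the 7 genes in the 4 pairs of genotype and tissue; bars are SEs, filled points are called and dotted lines mark the fold threshold. Mmp8 lies at 3.11, 2.10 and 2.08 in the first 3 panels, and no point is filled in αD KO lung.

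Mmp8, the neutrophil collagenase, was at 2248, 455 and 1703 CPM in WT blood at 0h (libraries 1a, 1b and 2) and at 17043, 10005 and 15681 CPM at 12 hours. Every library at 12 hours was above every library at 0h, and the log2 fold change was 3.11 (standard error, SE, 0.60; edgeR adjusted p = 0.0165). In WT lung, it went from 1627, 649 and 1699 CPM to 4508, 6239 and 5789 CPM, again without overlap (log2 fold change 2.10, SE 0.54, adjusted p = 0.0481). In blood of αD KO mice, it went from 2883, 629 and 3177 CPM to 9030, 11078 and 10825 CPM (log2 fold change 2.08, SE 0.51, adjusted p = 0.0431). The mean at 12 hours was thus 9.7 times that at 0h in WT blood, 4.16 times in WT lung and 4.62 times in αD KO blood. Mmp8 in αD KO lung was at 2944, 704 and 6401 CPM at 0h and 1807, 5386 and 2737 CPM at 12 hours, and the libraries overlapped. The log2 fold change there was 0.21 (SE 0.82), with -1.04 (SE 0.62) without libraries 1b, which keeps all the libraries that stood with the other time. Without the 3 libraries that stood with the other time, it was 1.62 (SE 0.79), from libraries 1a and 1b at 0h against library 1b alone at 12 hours. In each of these 3 pairs the sum of the neutrophil markers was also higher at 12 hours, and the means of the monocyte, B cell and eosinophil markers given beside Lyz2 were lower. Their part in the values of Mmp8 and Mmp25 was not tested. The level at 12 hours was the highest in blood, and the αD KO blood libraries at 12 hours were all above those of WT lung at 12 hours.

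Mmp25, the membrane-anchored protease leukolysin, followed Mmp8 at a lower level. In WT blood, it was at 108, 26.9 and 64.4 CPM at 0h and 722, 429.8 and 725 CPM at 12 hours, with no overlap (log2 fold change 3.05, SE 0.49, adjusted p = 0.00894). In WT lung, it rose from 104, 44.5 and 52.7 CPM to 194, 452 and 258 CPM (log2 fold change 2.27, SE 0.57, adjusted p = 0.045). Without libraries 1b, it was 1.30 (SE 0.34, adjusted p = 0.0164), and Mmp8 there was 1.39 (SE 0.29, adjusted p = 0.00578). Mmp8 and Mmp25 in WT lung were not called with the library number as a replicate block (adjusted p = 0.0881 and 0.0788), nor with all groups in a single fit (adjusted p = 0.15 and 0.0889). In αD KO blood, the libraries at 12 hours (213, 609 and 236 CPM) were above those at 0h (144, 42.5 and 81.6 CPM), and the log2 fold change of 1.88 (SE 0.55) did not pass in edgeR (adjusted p = 0.0695) but passed in DESeq2 (adjusted p = 0.00732). Under the αD KO label in lung, it was at 106, 40.4 and 203 CPM at 0h and 79.1, 347 and 159.6 CPM at 12 hours. The log2 fold change there was 0.99 (SE 0.75), with -0.37 (SE 0.54) without libraries 1b and 2.31 (SE 0.68) without the 3 libraries that stood apart. Leaving out libraries 1b keeps all of those 3.

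Mmp9, gelatinase B, was called in none of the 4 pairs by edgeR on the 3 libraries a group, and only in WT blood with the files of sample 1 summed (log2 fold change 1.17, SE 0.20, adjusted p = 0.0149). In WT blood, it was at 5652, 2861 and 4108 CPM at 0h and at 10611, 10134 and 10083 CPM at 12 hours, and the groups did not overlap. The log2 fold change was 1.12 (SE 0.41), with adjusted p = 0.113 by edgeR and 0.0011 by DESeq2. In WT lung, it was at 5504, 4181 and 2995 CPM at 0h and 2586, 8142 and 3715 CPM at 12 hours (log2 fold change 0.32, SE 0.64, adjusted p = 0.809). Library 1b was the highest and library 1a the lowest at 12 hours, on either side of all 3 libraries at 0h. For αD KO blood, library 1b alone (9456 CPM) was above the 0h libraries (5834, 3591 and 3820 CPM), and libraries 1a and 2 were at 4557 and 4887 CPM. For αD KO lung, the 12-hour libraries (4305, 6074 and 4861 CPM) were all above those at 0h (3451, 3853 and 3254 CPM), and the log2 fold change of 0.63 (SE 0.47) was not called. Over all 8 groups the highest mean was that of WT blood at 12 hours, 10276 ± 291 CPM (SD over the 3 libraries of 2 samples, as in all SDs below), whose libraries were above all others of the series.

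Adam8, the sheddase, had its highest mean in WT lung at 12 hours. The 3 libraries there were at 2737, 666 and 2317 CPM, against 750.3, 626 and 843 CPM at 0h. Libraries 1a and 2 were far above 0h and library 1b was among the 0h libraries (log2 fold change 1.22, SE 0.47, edgeR adjusted p = 0.14, DESeq2 adjusted p = 0.0481). In WT blood, it was at 818, 372 and 1023 CPM at 0h and 879, 943 and 859 CPM at 12 hours (log2 fold change 0.14, SE 0.40). The groups with the αD KO label overlapped between the times in both tissues, with log2 fold changes of 0.38 (SE 0.45) in blood and 0.25 (SE 0.43) in lung. Adam8 overlaps the annotated genes Gm16201, on the other strand, and Mir7062. The strand setting of the counting is not given in the sources used here, and Gm16201 had at most 268 counts in a library and at most 1.34% of the counts of Adam8.

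Of the complement genes, Cfp (properdin) was higher on average at 12 hours in all 4 pairs and was called in none. Its log2 fold changes were 0.34 (SE 0.57) in WT blood, 0.56 (0.40) in WT lung, 0.51 (0.35) in αD KO blood and 0.30 (0.43) in αD KO lung. In WT blood, it was at 979, 148 and 560.0 CPM at 0h and 884, 553 and 951 CPM at 12 hours. Library 1b was the lowest of the 3 in all 8 groups, and the times overlapped in each of the 4 comparisons.

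Fcnb (ficolin B) was near the lower end of detection, with 6 to 279 counts per library. In WT lung, it was at 0.376, 0.826 and 0.405 CPM at 0h (10, 16 and 10 counts) and at 6.49, 1.44 and 9.01 CPM at 12 hours (92, 18 and 155 counts). All libraries at 12 hours were above those at 0h (log2 fold change 3.22, SE 0.73, adjusted p = 0.0338), and library 1b differed by only 2 counts between the times. This call too was lost with the replicate block (adjusted p = 0.0657) and with all groups in a single fit (adjusted p = 0.139). In WT blood, it was at 8.97, 1.36 and 0.421 CPM at 0h and 14.9, 5.88 and 3.13 CPM at 12 hours, with overlap (log2 fold change 0.95, SE 1.03). In αD KO blood, libraries 1a and 2 were at 18.7 and 19.9 CPM at 12 hours and library 1b at 1.7 CPM, against 2.06, 9.01 and 1.2 CPM for libraries 1a, 2 and 1b at 0h. In αD KO lung, the values were 4.59, 1.04 and 11.9 CPM at 0h and 2.65, 0.413 and 2.65 CPM at 12 hours, the only pair with a lower mean at 12 hours (log2 fold change -1.60, SE 0.92, not called). Counts of 6 to 20 carry a large counting error of their own, and reads without molecular identifiers are not independent molecules.

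Lyz2, the myeloid lysozyme, moved the other way. In αD KO blood, it was at 12011, 3122 and 19988 CPM at 0h and 676, 2736 and 853 CPM at 12 hours, without overlap (log2 fold change -3.11, SE 0.78, edgeR adjusted p = 0.0462). The call was lost with RLE normalization (adjusted p = 0.0535) and with all groups in a single fit (adjusted p = 0.146), as was that of Mmp8 in the latter (adjusted p = 0.142). In WT blood, it was at 10695, 2510 and 9937 CPM at 0h and 4802, 1136 and 1932 CPM at 12 hours (log2 fold change -1.76, SE 0.66, adjusted p = 0.123). Each numbered library was lower at 12 hours. A fit that blocks on the number gave Lyz2 a log2 fold change of -1.75 and an adjusted p of 0.0256. It called 3 of 7 genes, with 2692 of 14625 genes in all. The labels state no pairing by number, and untreated and operated mice were different animals. In WT lung, it was at 4664, 2769 and 7043 CPM at 0h and 394, 3072 and 721 CPM at 12 hours. Libraries 1a and 2 were lower at 12 hours than any library at 0h, and library 1b was not (log2 fold change -1.56, SE 0.89, adjusted p = 0.311). In αD KO lung, it was at 8563, 3812 and 539 CPM at 0h and 7464, 1206 and 7585 CPM at 12 hours, so that the library labelled 0h that stood with the 12-hour libraries was also the lowest in Lyz2. The log2 fold change there was 0.27 (SE 0.96), with 0.68 (SE 1.12) without libraries 1b and -2.29 (SE 0.94) without the 3 libraries that stood apart. Leaving out libraries 1b keeps all of those 3.

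Lyz1 was counted at 0.5% to 1.12% of the counts of Lyz2 and was the gene most like Lyz2 over the 24 libraries (r = 0.98). No window of 150 bases of the Lyz2 transcript occurs in that of Lyz1, but 15.4% of windows of 50 bases do, and reads could be split between the copies. Monocyte and macrophage markers (Csf1r, Ccr2, Cx3cr1, Ly86, Adgre1, Cd68, Ms4a7, C1qa, C1qb, Marco and Mrc1) were all detected in every group, with none at 0, and the mean of their sum was lower at 12 hours in the pairs where Lyz2 was lower. It was 486 to 1413 CPM in WT blood at 0h and 165 to 521 CPM at 12 hours, where the ranges overlapped, 661 to 1194 and 363 to 484 CPM in WT lung, and 674 to 1644 and 185 to 259 CPM in αD KO blood. For αD KO lung, it was 317 to 629.9 CPM at 0h, lowest in the library with the lowest Lyz2, and 408 to 1049 CPM at 12 hours. Markers of B cells (Cd79a, Cd79b, Ms4a1, Ighm) also summed to less at 12 hours in these 3 pairs (259 to 1199.7 CPM against 38.5 to 215 in WT blood, 391 to 747 against 34.3 to 83.6 in WT lung, 309.7 to 1205 against 36.5 to 128 in αD KO blood), as did eosinophil markers (28.5 to 125 CPM over their 9 libraries at 0h and 1.64 to 15.4 CPM at 12 hours). The part of these cells in the values of Lyz2 was not tested, and in sorted bulk cells fewer cells of a type and less RNA per cell cannot be told apart.

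**Figure D3:**
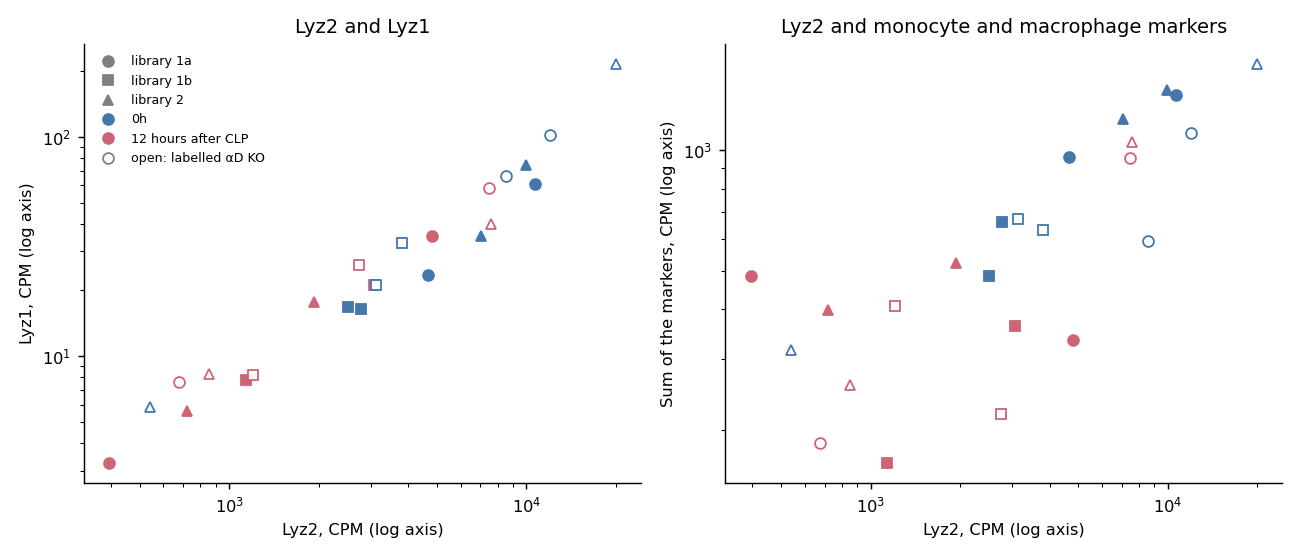
Level of Lyz2 (horizontal log axis, CPM) against Lyz1 (left) and against the sum of 11 monocyte and macrophage markers (right) in the 24 libraries; shapes give the library, colours the time, and open points the αD KO label. The library labelled αD KO lung 0h with 539 CPM of Lyz2 (open triangle) lies among the 12-hour libraries in both panels.

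Libraries 1b differed from libraries 1a and 2 at 0h, and several calls changed when they were left out. No contrast of the library sets at 12 hours alone was fitted. For Mmp8, library 1b was the lowest of its group in 4 of 4 groups at 0h and the highest in 3 of 4 at 12 hours. In a fit over WT blood, WT lung and αD KO blood (18 libraries, chosen after the values were seen), Mmp8 at 0h was lower in libraries 1b by a log2 fold change of -1.57 (SE 0.30, adjusted p = 0.00076). Cfp (-1.08, SE 0.27, adjusted p = 0.00367) and Lyz2 (-1.47, SE 0.57, adjusted p = 0.0409) were lower too. This rule called 43.7% of all genes (10836 higher and 322 lower in libraries 1b), and the median of all genes tested was 1.18. Whether the change at 12 hours differed between the library sets was called for 0 of 7 genes (0.0235% of all genes), with 4 at an unadjusted p under 0.05. These were Mmp8 (1.76, SE 0.40, adjusted p = 0.162), Mmp25 (1.89, SE 0.50, adjusted p = 0.207), Mmp9 (1.14, SE 0.46, adjusted p = 0.346) and Lyz2 (3.07, SE 0.82, adjusted p = 0.209). DESeq2 called 4 of the 7 (and 772 of 14523 genes), as did edgeR without the filter on low counts (507 of 45182 genes).

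**Figure D4:**
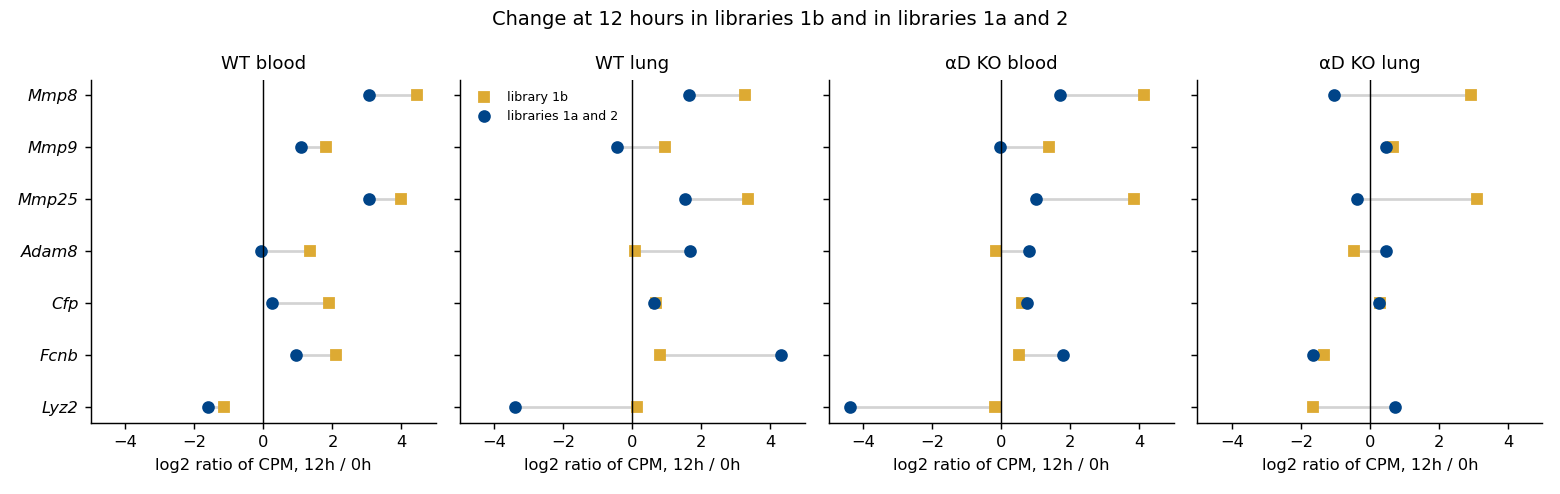
Log2 ratio of CPM at 12 hours to 0h (horizontal axis) of each gene in libraries 1b (squares) and in libraries 1a and 2 together (circles), by genotype and tissue, with no test. Lyz2 in WT lung lies at 0.15 in libraries 1b and at -3.39 in libraries 1a and 2, and Mmp8 lies above 0 in libraries 1b in all 4 panels.

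Lyz2 in WT lung was 1.11 times its 0h level in library 1b and 0.0953 times in libraries 1a and 2. For αD KO blood, the same ratios were 0.877 and 0.0478. Mmp25 in αD KO blood was at 14.3 times its 0h level in library 1b and at 2.0 times in the other libraries. With libraries 1b left out (2 against 2), edgeR called 3 of 7 genes in WT blood (23.1% of all genes), 5 of 7 in WT lung (37.2%) and 2 of 7 in αD KO blood (11.0%). Lyz2 was then called in all 3, with log2 fold changes of -1.84 in WT blood, -3.63 in WT lung and -4.59 in αD KO blood (adjusted p = 0.028, 0.000438 and 0.0035). Adam8 was called in WT lung (1.42, SE 0.27, adjusted p = 0.00381).

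The next question was whether the level differed between lung and blood. At 0h, edgeR called 0 of 7 genes in WT and 0 of 7 in αD KO (0.0% of all genes in both), with 0 at an unadjusted p under 0.05 and 0 by DESeq2 (36 of 19738 genes in WT and 105 of 21188 in αD KO). At 12 hours, it called 0 of 7 in both genotypes (0.0442% of all genes in WT and 0.0548% in αD KO). In WT at 12 hours, Mmp8 and Adam8 had an unadjusted p under 0.05. Mmp8 was lower in lung (5512 ± 898 CPM, SD) than in blood (14243 ± 3733 CPM), with no overlap and a log2 fold change of -1.17 (SE 0.44, edgeR adjusted p = 0.228; DESeq2 adjusted p = 0.0477, and it called 6.59% of all genes). Mmp9 was also lower in every lung library, with a log2 fold change of -0.80 (SE 0.63). These were 2 of 7 genes without overlap, against 22.4% of all genes. With the files of sample 1 summed, only Mmp8 was called (-1.45, adjusted p = 0.0412, with 4.47% of all genes called). Adam8 was higher in lung on average (1907 ± 1095 against 894 ± 44.1 CPM, log2 fold change 1.03, SE 0.43, adjusted p = 0.258). With libraries 1b left out, 5 of 7 genes were called (28.2% of all genes): Mmp8 (-1.69), Mmp9 (-1.73), Mmp25 (-1.70) and Lyz2 (-2.60) were lower in lung and Adam8 (1.51) higher.

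In αD KO at 12 hours, Mmp8 (log2 fold change -1.35, SE 0.57), Fcnb (-2.65, SE 0.89) and Lyz2 (1.96, SE 0.78) had an unadjusted p under 0.05, and DESeq2 called Fcnb (adjusted p = 0.0225, with 6.56% of all genes called). Mmp8 alone of the 7 did not overlap, lower in all 3 lung libraries, where 28.8% of all genes did not overlap. With the files of sample 1 summed, edgeR called Mmp8 (-1.59, adjusted p = 0.0433), Fcnb (-2.70, adjusted p = 0.0183) and Lyz2 (2.47, adjusted p = 0.0223), with 8.27% of all genes called. With libraries 1b left out, 3 of 7 genes were called (34.3% of all genes), but that leaves only the lung libraries that stood with 0h. Without those, which leaves library 1b of lung, the log2 fold changes were -0.82 for Mmp8 (SE 0.47), -4.85 for Fcnb (SE 1.58) and -0.15 for Lyz2 (SE 0.82).

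Last, the genotypes were compared directly. Of the 7 genes, edgeR called 0 in blood at 0h (0.0115% of all genes), 0 in blood at 12 hours, 0 in lung at 0h and 0 in lung at 12 hours (0.0% in these 3), and DESeq2 called 0 in all 4 (5 of 42353, 10 of 16846, 7 of 42985 and 141 of 12611 genes in the same order). By edgeR, the only gene with an unadjusted p under 0.05 was Fcnb in lung at 0h (without overlap, as 6.85% of all genes), higher in αD KO at 5.85 ± 5.55 CPM (SD) than in WT at 0.536 ± 0.252 CPM (log2 fold change 3.30, SE 0.91, adjusted p = 0.983). Its highest αD KO value, 11.9 CPM, was in the library that stood with 12 hours, and without it the log2 fold change was 2.46 (SE 0.95). Library 1b had 14 counts of Fcnb (1.04 CPM) in αD KO and 16 counts (0.826 CPM) in WT. The lack of overlap between these libraries thus rests on the scaling. In blood at 12 hours, Mmp9 was lower in every αD KO library (4557, 9456 and 4887 CPM) than in any WT library, with a log2 fold change of -0.66 (SE 0.41, adjusted p = 0.962). It was 1 of 7 genes without overlap there, against 7.93% of all genes. Mmp25 in blood at 12 hours was at 213, 609 and 236 CPM under the αD KO label, against 722, 429.8 and 725 CPM under the WT label. With libraries 1b left out, Mmp25 was called lower in αD KO (-1.67, SE 0.21, adjusted p = 0.0482, with 0.224% of all genes called). In lung at 12 hours, leaving out libraries 1b called Lyz2 higher (3.89) and Adam8 (-1.17) and Fcnb (-1.40) lower in αD KO (30.1% of all genes), a setting that keeps only the αD KO libraries that stood with 0h. Without those, which leaves library 1b of αD KO, Lyz2 was at -0.06 (SE 1.45), Adam8 at -1.65 (SE 1.09) and Fcnb at -3.39 (SE 1.49).

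Whether the change at 12 hours differed by genotype or tissue was tested with 4 interaction terms, and edgeR called 0 of 7 genes and 0.0% of all genes in each. Unadjusted p was under 0.05 for 0 of 7 genes by genotype in blood, 1 by genotype in lung, 0 by tissue in WT and 2 by tissue in αD KO, and DESeq2 called 0, 1, 0 and 0 (1 of 43053, 290 of 12561, 97 of 12524 and 255 of 12467 genes). For Mmp8 in blood, the change in αD KO less that in WT was -0.95 (SE 0.95) and for Lyz2 it was -1.25 (SE 1.18). In lung, the same difference was -4.73 for Fcnb (SE 1.30, edgeR adjusted p = 0.41; DESeq2 adjusted p = 0.02, and it called 2.31% of all genes) and -1.87 for Mmp8 (SE 0.98, adjusted p = 0.551). Without libraries 1b, Mmp8 (-2.39) and Fcnb (-5.64) were called there (13.2% of all genes), a setting that keeps all the αD KO lung libraries that stood with the other time. With the libraries that stood apart left out, Mmp8 was at -0.32 (SE 1.14) and Fcnb at -5.75 (SE 1.85). Between tissues of WT mice, the change in lung less that in blood was -1.19 for Mmp8 (SE 0.84) and 1.02 for Adam8 (SE 0.64, adjusted p = 0.876 for both), and without libraries 1b Adam8 was called (1.72, adjusted p = 0.0211, with 7.41% of all genes called). Between tissues of αD KO mice, Lyz2 (3.30, SE 1.39, adjusted p = 0.431) and Fcnb (-3.30, SE 1.46, adjusted p = 0.451) had an unadjusted p under 0.05. Without the libraries that stood apart, Lyz2 was at 0.62 (SE 1.35) and Fcnb at -4.49 (SE 1.96).

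The other genes of these granules and pathways were described by lists, with counts and medians and no test of a list. Of all genes tested, 13.5% were called in WT blood, 9.02% in WT lung and 8.75% in αD KO blood. Specific granule genes had the highest medians in WT blood, WT lung and αD KO blood, but not in αD KO lung. Of 12 tested, 7 rose and 0 fell in WT blood (median log2 fold change 4.27 against -0.15 over all genes), 11 and 0 in WT lung (4.47 against 0.029) and 5 and 0 in αD KO blood (2.39 against -0.14). In the same 3 pairs, the sum of the neutrophil markers was higher at 12 hours, and the means of the monocyte, B cell and eosinophil markers were lower. Their part in the specific granule values was not tested. Lcn2, the iron-siderophore binder lipocalin 2, rose from a mean of 432 to 19201 CPM in WT blood (adjusted p = 0.00205), from 531 to 28724 CPM in WT lung (adjusted p = 0.00492) and from 1304 to 16383 CPM in αD KO blood (adjusted p = 0.00743). Olfm4 (olfactomedin 4) rose in both WT tissues, with log2 fold changes of 5.39 and 4.74. Of 14 other gelatinase granule genes, 13, 12 and 13 were tested, 4, 2 and 3 rose, and 1 fell in each (medians 0.98, 1.44 and 0.51). Fpr2, a formyl peptide receptor, rose in all 3 (log2 fold changes 3.18, 2.71 and 2.68), and Itgax, the integrin αX chain, was the gene that fell (-4.22, -2.31 and -4.07). Itgax is also expressed by dendritic cells and macrophages. The monocyte and macrophage marker sums given beside Lyz2 had lower means at 12 hours in the same 3 pairs, and their part was not tested. Cybb, the catalytic subunit of the NADPH oxidase, rose in WT blood (2.97) and WT lung (1.89). Of the azurophil granule genes tested (5, 3 and 3 of 7), Cd63 rose in WT blood (1.72) and αD KO blood (1.69), and no other was called.

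Among 27 other metalloprotease genes, 16, 16 and 14 were tested and 4, 3 and 2 rose, with none lower (medians 0.44, 0.30 and 0.26). Of all genes tested, 13.5%, 9.02% and 8.75% were called in these comparisons. No list in this paragraph was tested against those shares. Mmp27 rose in all 3 comparisons, from 1.86 to 11.6 CPM in WT blood, from 1.72 to 8.77 CPM in WT lung and from 1.21 to 11.4 CPM in αD KO blood. Mmp19 rose in both WT tissues (log2 fold changes 3.64 and 5.20) and Mmp14, a membrane-type metalloprotease, in blood of both genotypes (5.11 and 4.21). Both genes were low at 0h. In WT blood, Mmp14 was at 0.0363, 0.634 and 0.548 CPM at 0h and 36.1, 5.83 and 7.03 CPM at 12 hours. Mmp19 there went from 1.09, 1.54 and 1.85 CPM to 7.82, 5.48 and 54.8 CPM. In WT lung at 0h, Mmp19 was at 0.376, 1.34 and 0.0405 CPM. The mean of Mmp14 in αD KO blood at 0h was 0.289 CPM. Of the metalloprotease inhibitors tested (3, 4 and 2 of 5), Reck, a membrane-anchored inhibitor, was called in each and rose from 8.78 to 113 CPM, from 6.03 to 36.1 CPM and from 13.2 to 78.9 CPM. Of 14 complement genes, 8 were tested in each, and 2, 2 and 1 rose (medians 0.15, 0.87 and -0.50). C3, the central complement component, rose in all 3 (log2 fold changes 1.46, 2.35 and 1.18), Cd55, which decays convertases, in both WT tissues (3.27 and 2.47), and Fcna, the other mouse ficolin gene, fell in αD KO blood (-6.47). Fcna in αD KO blood at 0h was at 19.3, 0.565 and 2.63 CPM, most of its mean coming from library 1a.

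Of 12 genes of granule release, 2, 1 and 0 rose and none fell: Sytl1 and Rab3d in WT blood and Stx11 in WT lung. These shares lie near those of all genes (13.5%, 9.02% and 8.75%) and show nothing particular to the list. Of 8 regulators of granule genes, Cebpd fell in WT blood (-1.97, SE 0.39, adjusted p = 0.0182) and Cebpa rose in WT lung (2.14, SE 0.47, adjusted p = 0.0316). Spi1 (PU.1) and Cebpe were not called in any of the 4 comparisons of time. In αD KO lung, no gene of any list was called, and the list medians lay between -0.31 and 0.37 against -0.046 over all genes. In the comparisons of tissues and of genotypes, no gene of these lists was called, Fcna included, with at most 0.0548% of all genes called. The specific granule median of αD KO against WT at 0h was still 3.23 in lung (0.17 over all genes, 12 of 12 positive). In blood it was 1.80 (-0.007, 11 of 12). At 12 hours, it was -1.19 in lung (0.13, 0 of 12) and -0.26 in blood (0.03, 3 of 12). The αD KO lung groups include the libraries that stood with the other time.

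**Figure D5:**
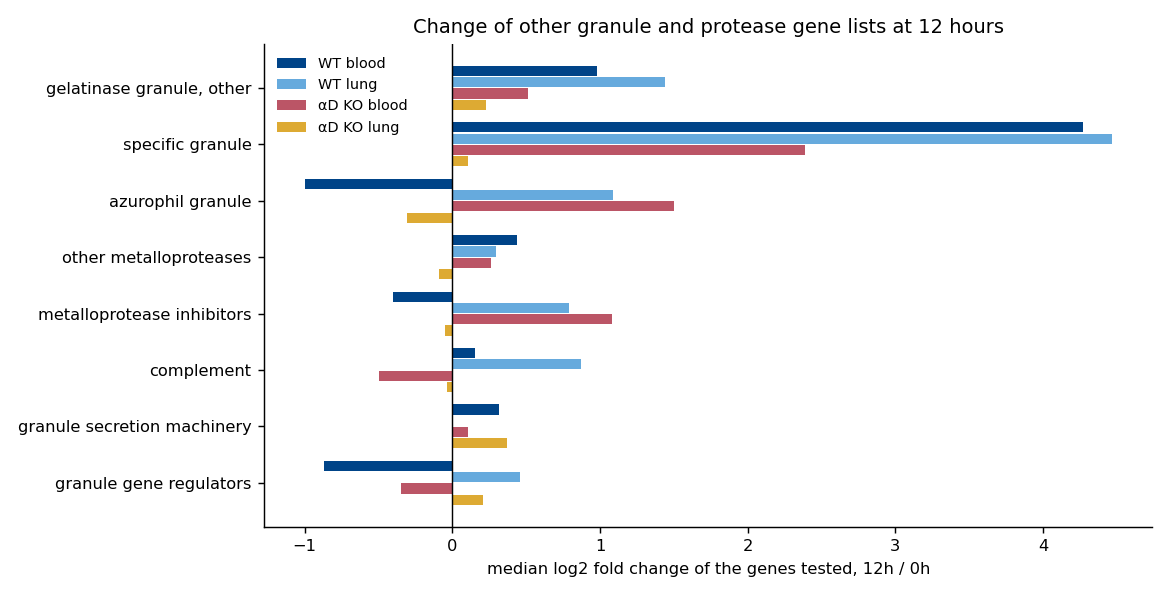
Median log2 fold change at 12 hours against 0h (horizontal axis, edgeR) of the genes tested in each of 8 gene lists, by genotype and tissue. The specific granule bars reach 4.27 in WT blood, 4.47 in WT lung and 2.39 in αD KO blood and 0.11 in αD KO lung.

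By Pearson's r of log2 CPM over the 24 libraries, among 27145 genes kept over all groups, the genes most like Mmp8 were Sri, Cd177 and Pdk3 (r = 0.98 for all 3), and those most like Mmp25 were Ltb4r1, Ano10 and Mcu (0.97, 0.97 and 0.96). Cd177 is a specific granule and surface protein of neutrophils and Ltb4r1 the receptor of leukotriene B4. Those most like Mmp9 were Hjurp, Adam15 and Ttc13 (0.92, 0.91 and 0.91), like Adam8 were Sidt2, Tmem104 and Smim3 (0.92, 0.91 and 0.91), and like Cfp were Kat5, Ndfip2 and Capza1 (0.961, 0.935 and 0.935). Fcnb was most like Drg2, Ldhc and Zwint (0.87, 0.84 and 0.83), and Lyz2, after Lyz1, was most like Plekhb2 and Rnaseh2c (0.94 and 0.93). The libraries share their time, depth and set (1a, 1b or 2), which enter these values.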

How the data were processed

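RNA was sequenced by the authors from sorted neutrophils of WT and αD KO mice. Per the labels and the methods, full-length cDNA was amplified and tagmented, reads were trimmed (Trimmomatic 0.36) and mapped with STAR 2.5.2b to GRCm38 (mm10), and unique exonic reads were counted. The deposited values are raw counts per gene, not normalized, and the strand of counting is not given in the sources used here.

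Counts of libraries 1a and 1b differed beyond sampling noise in each group (chi-square over its degrees of freedom 63.5 to 328.5), so they were not copies of a single library. Whether they are separate animals was not stated, and separate libraries of a single RNA would differ too. Each file was taken as a library in the main test, with the summed files as an alternative. The main test was the quasi-likelihood F test of edgeR 4.0.16 (R 4.3.3; TMM, filterByExpr, two-sided, Benjamini-Hochberg over all genes tested) on the libraries of the groups compared. DESeq2 1.42.0 was an alternative. Fold changes use the TMM factors of each comparison, and printed CPM those of all 24 libraries. The fit was tested on simulated counts. A check asked whether the deviations of same-numbered libraries correlate above 0.1 for all 3 numbers. They did in WT blood over time (0.46, 0.59 and 0.11), αD KO lung over time, lung against blood at 12 hours in both genotypes, and αD KO against WT blood at 0h. Such a correlation cannot show a pairing of samples, since deviations within a group depend on each other and libraries 1b deviated together. Untreated and operated mice, and mice of the 2 genotypes, were different animals. The labels state no pairing.

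The 7 genes, the 18 gene and marker lists and the tests were chosen with earlier results of these data known. A few listed genes are not reported here and were left out of the counts and sums of their lists. All 7 genes were named, with up to 4 called genes of lowest adjusted p per list and the 3 genes of highest r per member. Tables were made in Python 3.11.15 with pandas 2.3.3 and numpy 2.4.6. Alternatives were RLE normalization, no filter, DESeq2, summed files of sample 1, libraries 1b left out, the replicate block, all groups in a single fit, the adjusted p alone, the libraries that stood apart left out, and each library left out in turn.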

Additional observations from a re-analysis of the deposited data

How the results depend on the processing

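Counts are of the 7 genes called by edgeR unless stated, with the genes called among all tested in parentheses where given. In WT blood over time, 2 were called, against 4 with DESeq2 (2891 of 15220) or summed files (2756 of 17303) and 1 without the filter on low counts (944 of 41941). In WT lung, 3 were called, against 5 without libraries 1b, 4 with DESeq2 or summed files, 2 without the filter (1331 of 42259) and 0 with all groups in a single fit (447 of 27145). In αD KO blood, 2 were called, against 3 with DESeq2 or without the filter (1667 of 41182), 1 with RLE normalization (1230 of 14156) and 0 with all groups in a single fit (64 of 27145). In WT lung against blood at 12 hours, 0 were called, against 1 with DESeq2 (851 of 12914) or summed files (748 of 16740) and 5 without libraries 1b. In αD KO lung against blood at 12 hours, 0 were called, against 2 without the filter (1293 of 41346), 1 with DESeq2 (1231 of 18775) and 3 with summed files (1441 of 17428) or without libraries 1b. Without libraries 1b, αD KO against WT gave 1 in blood and 3 in lung at 12 hours, the lung interaction with genotype 2 (1 with DESeq2) and the WT interaction with tissue 1. The interaction of time with library set gave 0, against 4 with DESeq2 or without the filter.

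Leaving out 1 library at a time gave 0 to 3 genes in WT blood, 0 to 5 in WT lung, 0 to 2 in αD KO blood, 0 to 5 in WT lung against blood at 12 hours and 0 to 2 in the same comparison of αD KO, and 0 in the others. The genes called among all tested then ranged from 2 to 2804 in WT blood, 0 to 3941 in WT lung, 74 to 1414 in αD KO blood, 0 to 2916 in WT lung against blood at 12 hours and 0 to 1691 in that of αD KO. In WT lung, leaving out library 1b of 12 hours gave 5 and library 1b of 0h gave 1, and each of the other 4 libraries gave 0. In both blood comparisons, leaving out library 1a or 2 of either time gave 0 genes, and leaving out library 1b of αD KO blood at 12 hours gave 1. The edgeR adjusted p of Mmp8 then ranged from 0.0028 to 0.313 in WT blood, from 0.0174 to 0.403 in WT lung and from 0.0296 to 0.174 in αD KO blood.

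With the replicate block, 3 genes were called in WT blood (2692 of 14625), 0 in WT lung (893 of 14859) and 2 in αD KO blood (1520 of 14156), and no other count moved. Deviations of same-numbered libraries did not all correlate above 0.1 in WT lung and αD KO blood, and the labels state no pairing in any comparison.

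No value called in the main fit changed sign under any alternative. Lyz2 in αD KO lung at 12 hours did among alternatives: it was called higher than in WT lung (3.89) and than in αD KO blood (3.47; 2.47 with summed files) without libraries 1b, and was at -0.06 and -0.15 without the libraries that stood apart. RLE normalization moved the median of all genes by 0.17 and 0.21 (log2) in the tissue interactions of WT and αD KO and by 0.14 in that of library set, and by less than 0.1 elsewhere. The low counts of Fcnb and the 3 libraries per group limit what the counts of 0 can show.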
